A study of Homo sapiens with 6 samples.

Results

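The genes described here encode the machinery with which a cell attaches, moves and separates its chromosomes, together with the rest of the kinesin family. They were chosen by gene name, as the protein-coding genes named CENPA to CENPX, KIF with a number, AURKA to AURKC, PLK1 to PLK4, BUB1 and BUB1B, the cyclins A and B, NUSAP1, NDC80, NUF2, SPC24, SPC25, TTK, MAD2L1, CDC20, CDK1, BIRC5, TPX2, MKI67, TOP2A and ESPL1. This gave 88 of the 58735 genes in the table, which are called members below. RNA sequencing was done on 6 libraries of NCI-N87, an established gastric carcinoma cell line. The 3 shCtrl libraries (shNC in the labels) came from cells transduced with the empty lentiviral vector, and the 3 shS1#1 libraries (shScamp1 in the labels) from cells transduced with the same vector carrying an shRNA against SCAMP1, the secretory carrier-associated membrane protein 1. Both populations were exposed to virus for 24 h, selected with 2 μg/ml of puromycin as stable populations, and harvested at about 80% confluence. No genotype or drug other than these separates the groups in the labels, and a single shRNA was sequenced. The labels call the libraries biological replicates without saying whether they came from separate transductions, so the p-values measure the spread between these samples.

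The kinetochore is the protein assembly through which a chromosome grips the microtubules of the spindle. Many CENP proteins build its inner layer on the centromere, and the NDC80 complex binds the microtubule. The spindle checkpoint delays anaphase until every chromosome is attached. The CENP genes were grouped by name, and not all of them belong to that inner layer or to the centromere. Mitotic kinesins are motor proteins that shape the spindle and divide the cell, whereas transport kinesins carry vesicles, organelles and ciliary cargo at any time of the cycle. Most transcripts of the mitotic genes are known to rise as cells approach mitosis, and their promoters often hold a cell cycle homology region, with the letters TTTGAA or TTCGAA, and CCAAT boxes.

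These letters were looked up in the promoters that RefSeq gives for GRCh38.p14, taken as 250 bases before to 50 bases after the gene start, on both strands. Where several promoters were listed for a gene, only the first was used, for members and all other genes alike. This kept 27305 of 35116 promoters. A promoter was listed for 74 of the 88 members. Its start can differ from the outermost base of the gene in the annotation of the deposited table. TTTGAA or TTCGAA occurred in 31 of 55 promoters of the members other than transport kinesins (56.4%), in 2 of 19 promoters of transport kinesins (10.5%) and in 4539 of all 27305 promoters (16.6%). CCAAT occurred in 35 of 55 (63.6%), 6 of 19 (31.6%) and 9747 of 27305 promoters (35.7%), and both kinds of letters together in 25 of 55 (45.5%), 2 of 19 (10.5%) and 1797 of 27305 (6.58%). The 2 kinds of letters can overlap, and TTCGAA reads alike on both strands. The 120 bases before the start are shown for 5 members that were lower in shS1#1 cells, for CDC20, which lay above the threshold of the test and holds both kinds of letters, and for 2 kinesins that were higher. Capitals mark the letters TTTGAA and TTCGAA, as well as any CCAAT box, on either strand, so that a box on the reverse strand reads ATTGG.
SPC24 (chr19:11155783-11155902, reverse strand): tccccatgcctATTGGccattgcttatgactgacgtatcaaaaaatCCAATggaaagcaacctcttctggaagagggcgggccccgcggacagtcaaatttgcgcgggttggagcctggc
SPC25 (chr2:168890431-168890550, reverse strand): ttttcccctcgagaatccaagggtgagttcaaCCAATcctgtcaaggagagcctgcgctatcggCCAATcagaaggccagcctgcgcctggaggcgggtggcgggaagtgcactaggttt
KIF18B (chr17:44947774-44947893, reverse strand): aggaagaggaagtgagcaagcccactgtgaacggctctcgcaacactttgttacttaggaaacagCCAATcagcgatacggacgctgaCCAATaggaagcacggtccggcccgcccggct
KIF20A (chr5:138178992-138179111, forward strand): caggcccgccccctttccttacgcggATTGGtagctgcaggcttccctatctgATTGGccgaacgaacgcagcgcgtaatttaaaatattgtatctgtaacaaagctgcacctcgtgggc
KIF23 (chr15:69414229-69414348, forward strand): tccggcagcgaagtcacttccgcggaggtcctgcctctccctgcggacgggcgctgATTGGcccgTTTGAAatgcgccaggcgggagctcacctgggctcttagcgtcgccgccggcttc
CDC20 (chr1:43358861-43358980, forward strand): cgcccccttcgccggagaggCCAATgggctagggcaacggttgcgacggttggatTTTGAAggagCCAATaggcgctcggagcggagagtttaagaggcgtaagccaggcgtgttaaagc
KIF3A (chr5:132737547-132737666, reverse strand): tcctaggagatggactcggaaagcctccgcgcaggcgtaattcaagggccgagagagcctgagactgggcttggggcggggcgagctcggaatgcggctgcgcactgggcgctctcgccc
KIF3C (chr2:25982498-25982617, reverse strand): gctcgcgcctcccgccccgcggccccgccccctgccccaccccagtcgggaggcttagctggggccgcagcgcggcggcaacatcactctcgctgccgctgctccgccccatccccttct
All 5 of the lower members with a listed promoter held CCAAT within the 300 bases, and 3 of them (SPC25, KIF18B and KIF23) held TTTGAA or TTCGAA. In KIF18B these letters lie past the end of the bases shown. Of the 2 copies in SPC25, 1 lies upstream of the bases shown and 1 begins within their last 3 bases and runs past them, so that neither is in capitals. Neither KIF3A nor KIF3C held either kind of letters. TTTGAA or TTCGAA also occurred in 27 of 45 promoters (60%) of the members other than transport kinesins that were tested without being called. CENPM was the other lower member.

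Reads assigned to genes numbered 15064905 to 15988700 in the shCtrl and 14311769 to 14667628 in the shS1#1 libraries. SCAMP1 itself was at 12.6, 12.1 and 11.5 FPKM across the shCtrl replicates and 1.70, 1.37 and 1.99 FPKM across the shS1#1 replicates. It was 86.03% lower in shS1#1 cells, with a log2 fold change of -2.78 (SE 0.14, adjusted p = 2.48e-04 by limma), and the groups did not overlap. All 6 epithelial markers looked up (EPCAM, CDH1, KRT8, KRT18, KRT19 and ERBB2) were detected in every library, with a summed level of 5421 to 5702 FPKM in shCtrl and 9056 to 10009 FPKM in shS1#1 libraries. Markers of fibroblasts, leukocytes and endothelium summed to at most 0.773, 2.86 and 0.612 FPKM in any library. The part of the higher epithelial sum in the results was not tested. One library, shS1#1 replicate 2, stood apart from its group. Its mitochondrial share of reads was 9.21%, against 6.09% to 6.78% in the other 5. Compared over 11914 genes, its read counts differed from those of the other shS1#1 libraries by a chi-square of 44.1 and 56.5 per degree of freedom, while the other shS1#1 pair differed by 3.61 and the shCtrl pairs by 2.14 to 2.91. This library was the highest or the lowest of the 6 for 54 of 73 members, against 8 to 28 for each of the other libraries. Results are therefore given with and without it.

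In shS1#1 cells, several genes of the microtubule attachment and cell division machinery were lower than in shCtrl cells, and 2 kinesins of the transport class were higher. The members that fell were SPC24 and SPC25 of the NDC80 complex, the centromere protein CENPM, and the mitotic kinesins KIF18B, KIF20A and KIF23, each by 20.3% to 34.3%. The kinesin-2 motors KIF3A and KIF3C rose by 28.8% and 47.4%. The master kinases of mitosis, CDK1, AURKA, AURKB and PLK1, did not pass the test. Even so, AURKB and CDK1 were 36.1% and 19.9% lower (adjusted p = 0.0557 and 0.185 by limma). AURKA and PLK1 were 1.34% and 1.15% higher (adjusted p = 0.909 and 0.908 by limma). All 8 changes were below an absolute log2 fold change of 1. Limma called 8.22% of the members tested lower and 2.74% higher, where it called 5.17% of all genes lower and 8.82% higher. No member was called lower without shCtrl replicate 1, 2 or 3, or without shS1#1 replicate 3. In those fits 1.05% to 2.02% of all genes were called lower. Whole cultures were sequenced, so fewer cells in mitosis and fewer transcripts per cell cannot be told apart.

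Of the 88 members, 73 reached a mean of 0.5 FPKM over the 6 libraries and were tested. Limma on log2(FPKM + 0.1), adjusted over all 15556 genes tested, called 6 members lower and 2 higher at an adjusted p under 0.05, or 8.22% and 2.74% of the members tested, where 5.17% of all genes were lower and 8.82% higher. The log2 fold changes are on this scale and understate the change of the lowest genes. No member passed both that threshold and an absolute log2 fold change above 1, which 3.16% of all genes did. At an unadjusted p under 0.05, 15 members were lower and 8 higher (20.55% and 10.96%), where 14.7% of all genes were lower and 16.1% higher. Voom on the recovered reads called 10 members lower and 5 higher of the 79 it tested, where 7.74% of all genes were lower and 11.8% higher, and 1 of them, KIF5A, was past the fold threshold, as were 4.68% of all genes. The values of the groups did not overlap for 25 members that were lower and 11 that were higher in shS1#1 cells (34.2% and 15.1%), against 21.0% and 20.4% of all genes. The median log2 fold change was -0.08 over the 73 members and -0.02 over all genes. It was -0.12 over the 58 members other than transport kinesins, of which 44 were below 0, and 0.23 over the 15 transport kinesins, of which 13 were above 0. Of all 15556 genes tested, 8151 were below 0 and 7405 above it.

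**Figure D1:**
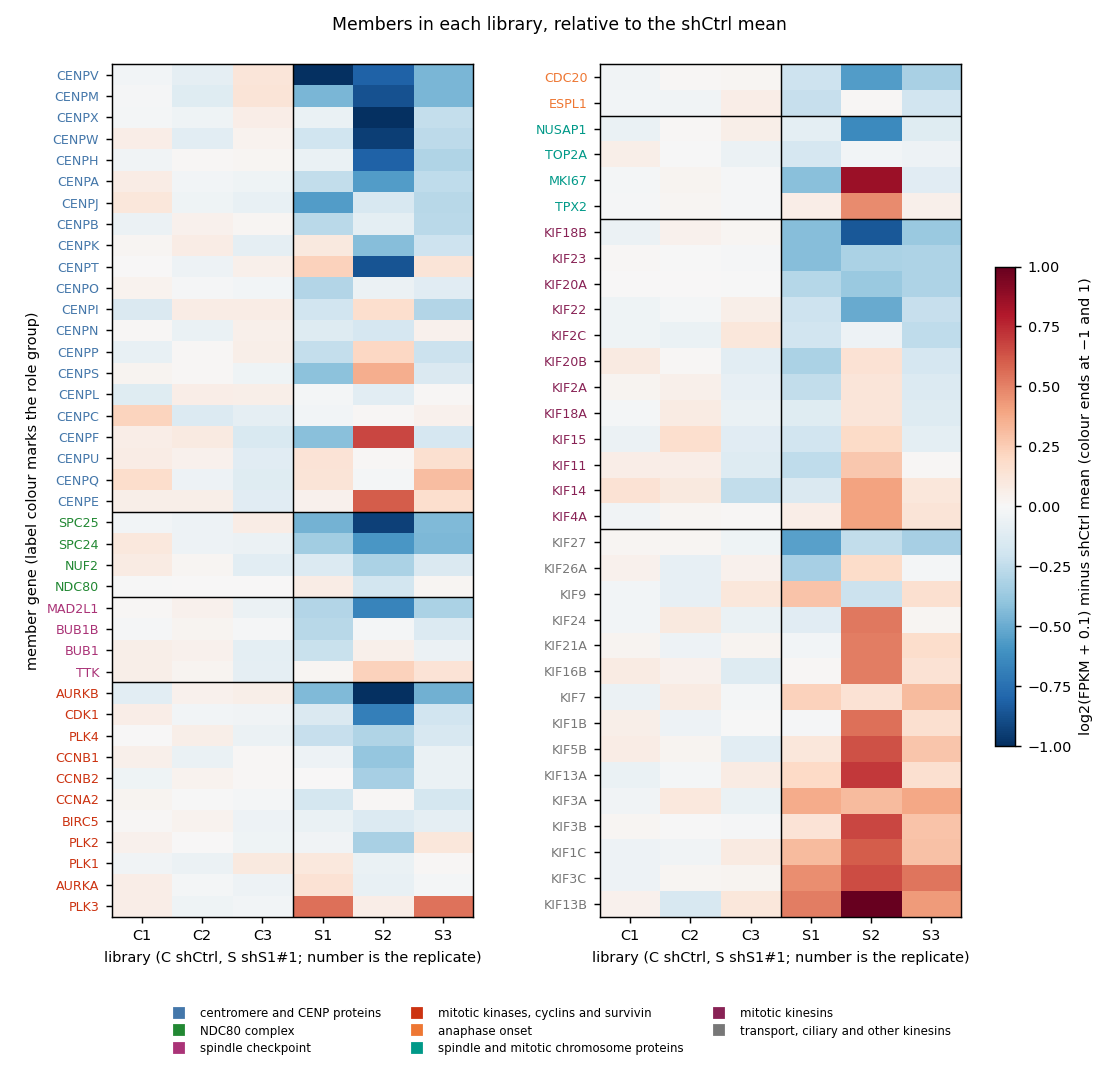
Each row is 1 of the 73 tested members and each column 1 library, and the colour is log2(FPKM + 0.1) minus the mean of the 3 shCtrl libraries, with the colour scale ending at -1 and 1. Horizontal lines and label colours separate the role groups, and within a group genes are sorted by their log2 fold change. The column of shS1#1 replicate 2 holds the highest value of the 6 libraries for 26 members and the lowest for 28.

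The number of calls depended on single libraries. Without shS1#1 replicate 2, limma called 18 members lower and 6 higher (24.7% and 8.22% of those tested), against 13.2% and 14.7% of all genes. The 18 were AURKB, BUB1B, CCNA2, CDC20, CDK1, CENPA, CENPB, CENPJ, CENPM, CENPW, ESPL1, KIF18B, KIF20A, KIF22, KIF23, MAD2L1, SPC24 and SPC25. The 6 were KIF3A, KIF3C, KIF1C, KIF3B, KIF13B and PLK3. All 8 members called with the 6 libraries were among these 24. Without shS1#1 replicate 1, 6 members were lower and 1 higher, against 4.33% and 7.33% of all genes. Without shCtrl replicate 1, 2 or 3, or shS1#1 replicate 3, limma called 0 members lower and 1 higher in each case. In these fits 1.05% to 2.02% of all genes were lower and 4.14% to 4.60% higher, also by the adjusted p. KIF3C was the member called in each of these fits.

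**Figure D2:**
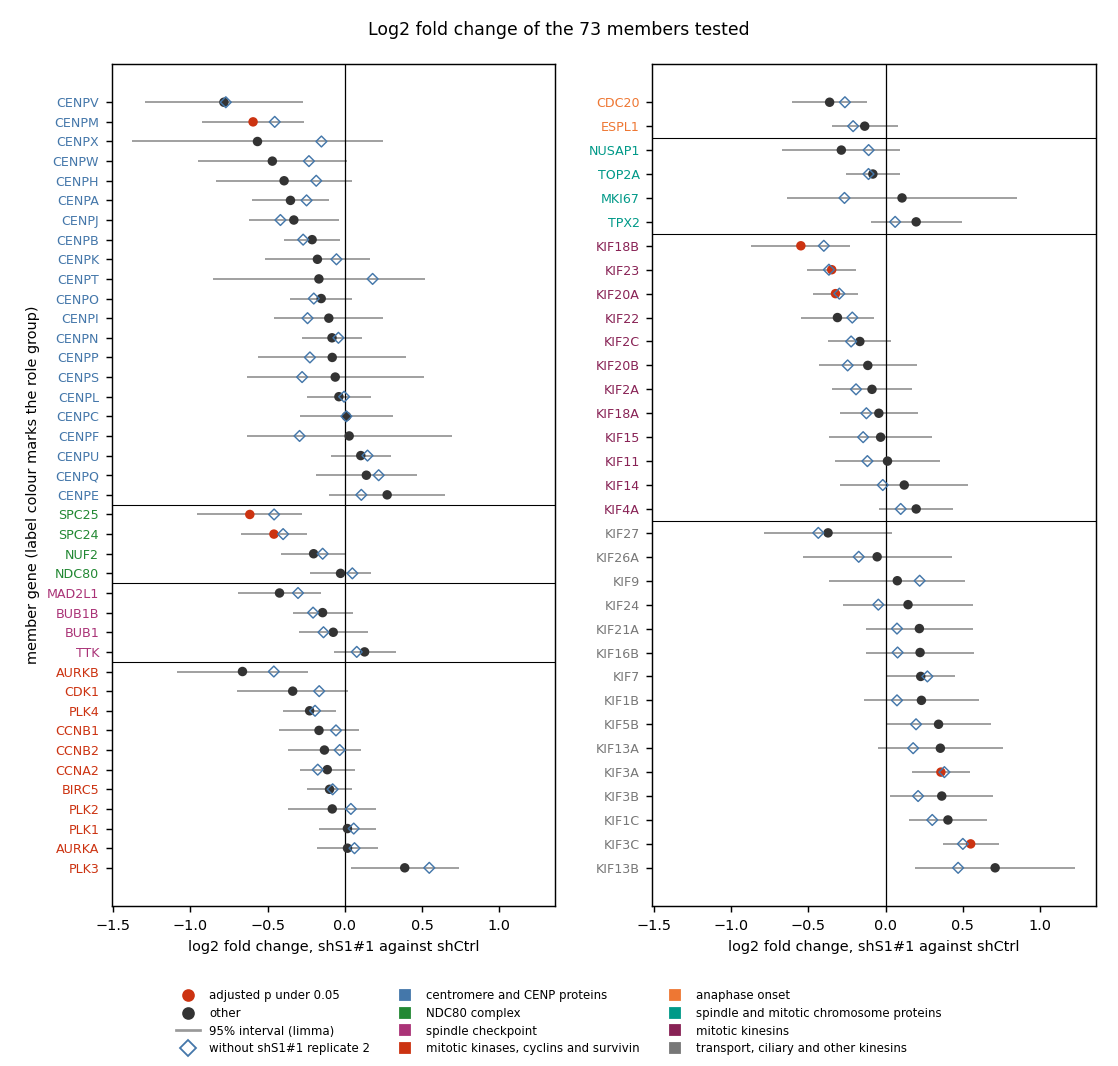
Points are the log2 fold changes of the 73 tested members, shS1#1 against shCtrl, with 95% intervals from limma as lines; red points passed an adjusted p of 0.05, and open diamonds give the log2 fold change without shS1#1 replicate 2. The interval of KIF3C (0.37 to 0.73) has the highest lower end of all members, and 13 of the 15 transport kinesins lie to the right of 0. Of all 15556 genes tested, which are not shown, 7405 had a log2 fold change above 0.

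The NDC80 complex is a rod of 4 proteins, in which NDC80 and NUF2 hold the microtubule and SPC24 and SPC25 anchor the other end in the kinetochore. The 2 anchoring subunits fell and the 2 microtubule-binding subunits did not pass the test, but the difference between the subunits was not tested. Of all genes, limma called 5.17% lower and 8.82% higher. SPC25 (ENSG00000152253, chromosome 2 from 168834132 to 168913371, build hg38) was at 11.99, 11.8 and 12.8 FPKM across the shCtrl replicates and 8.74, 6.35 and 8.95 FPKM across the shS1#1 replicates. Every shS1#1 library was below every shCtrl library, and the level fell by 34.3%, with a log2 fold change of -0.62 (SE 0.14, adjusted p = 0.0362 by limma). SPC24 (ENSG00000161888, chromosome 19 from 11131520 to 11155808) was at 8.75, 7.84 and 7.80 FPKM across the shCtrl replicates and 6.34, 5.40 and 5.92 FPKM across the shS1#1 replicates. Again the groups did not overlap, and the log2 fold change was -0.46 (SE 0.09, adjusted p = 0.0213 by limma), a fall of 27.6%. Without shS1#1 replicate 2, the lowest library for both genes, the log2 fold changes were -0.46 for SPC25 (adjusted p = 0.00325 by limma) and -0.40 for SPC24 (adjusted p = 0.0128).

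NUF2 averaged 7.25 ± 0.466 FPKM in shCtrl against 6.29 ± 0.440 FPKM in shS1#1 (SD, n = 3 for both), and its log2 fold change was -0.20 (SE 0.09, adjusted p = 0.172 by limma), with no overlap of the groups. NDC80 averaged 15.2 ± 0.0560 FPKM in shCtrl against 14.9 ± 1.38 FPKM in shS1#1 (SD, n = 3 for both), with a log2 fold change of -0.03 and a 95% interval of -0.23 to 0.17. NDC80 was thus the subunit with the highest level, and its mean hardly differed between the groups, while its sign changed without shS1#1 replicate 2 (0.05). The calls of the anchoring subunits were lost when some libraries were left out. For SPC25 the adjusted p by limma was 0.119 without shCtrl replicate 1, 0.114 without shCtrl replicate 2, 0.135 without shCtrl replicate 3 and 0.0596 without shS1#1 replicate 3. For SPC24 it was 0.094 without shCtrl replicate 1, 0.08 without shCtrl replicate 2, 0.0753 without shCtrl replicate 3 and 0.0761 without shS1#1 replicate 3.

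**Figure D3:**
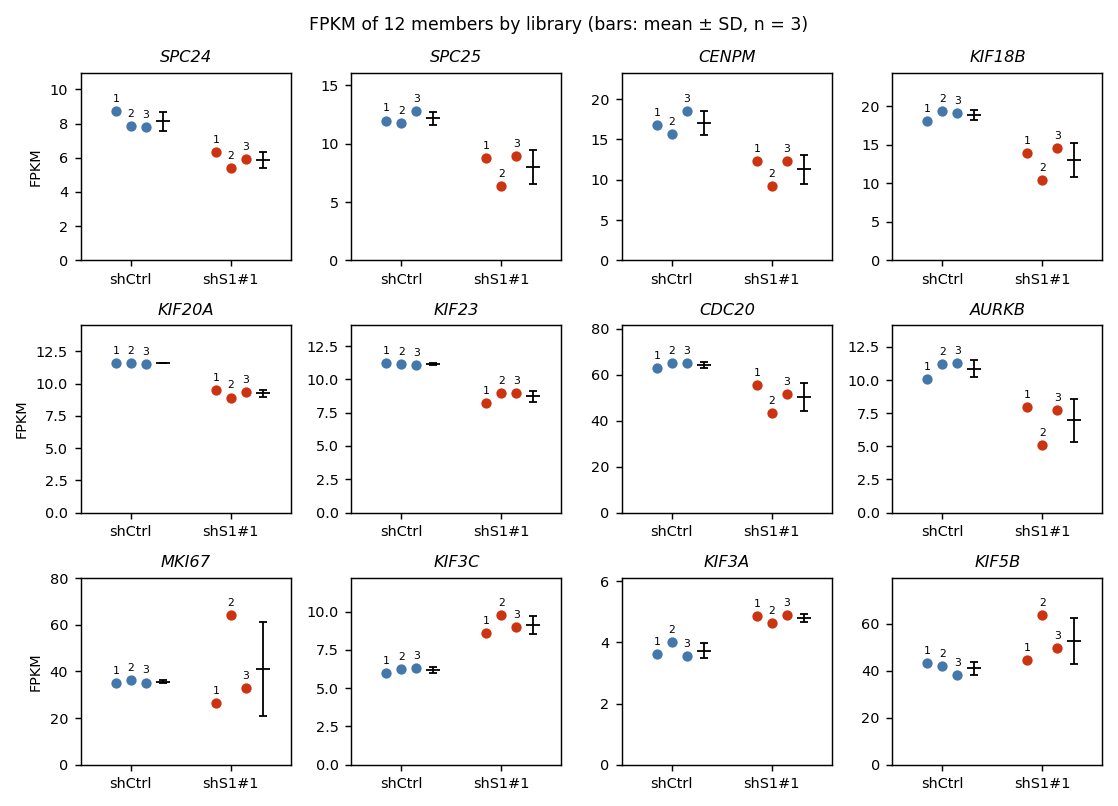
FPKM of 12 members in each library, shCtrl in blue and shS1#1 in red, with the replicate number over each point and bars for the mean ± SD (n = 3); every vertical axis starts at 0. The groups are separate for SPC24, SPC25, CENPM, KIF18B, KIF20A, KIF23, KIF3A and KIF3C, the 8 members called, and also for CDC20, AURKB and KIF5B, whereas MKI67 spans 26.5 to 64.2 FPKM within the shS1#1 libraries.

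Among the 21 centromere and CENP proteins, all of which were tested, limma called 1 lower (4.76%) and 0 higher. It called 5.17% of all genes lower and 8.82% higher, so the share of this group was below that of all genes in both directions. Values below 0 were seen for 16 of the 21, and the middle value of the group was -0.15 on the log2 scale. Limma gave an unadjusted p under 0.05 for 5 of the 21 in the lower direction and 0 in the higher direction. Of all genes, 14.7% and 16.1% had such a p. CENPM (ENSG00000100162, chromosome 22 from 41938721 to 41947164), a subunit of the constitutive network that sits on centromeric chromatin, was at 16.8, 15.6 and 18.6 FPKM across the shCtrl replicates and 12.4, 9.20 and 12.3 FPKM across the shS1#1 replicates. The shS1#1 values all lay below the shCtrl values, and the level fell by 33.5%, with a log2 fold change of -0.59 (SE 0.14, adjusted p = 0.0368 by limma). The adjusted p of CENPM was 0.122 without shCtrl replicate 1, 0.091 without shCtrl replicate 2, 0.137 without shCtrl replicate 3 and 0.0705 without shS1#1 replicate 3.

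CENPB, which binds the repeated DNA of centromeres, had the highest mean level of the group, at 55.96, 60.2 and 59.2 FPKM across the shCtrl replicates and 48.4, 54.7 and 48.5 FPKM across the shS1#1 replicates. The groups did not overlap, and the log2 fold change was -0.21 (SE 0.08, adjusted p = 0.118 by limma) with all libraries and -0.27 (adjusted p = 0.00772) without shS1#1 replicate 2. CENPX, a small histone-fold protein of the inner kinetochore that also acts in DNA repair, was second in level, at 46.5, 45.7 and 49.4 FPKM across the shCtrl replicates and 44.99, 17.9 and 40.1 FPKM across the shS1#1 replicates. Its low value in shS1#1 replicate 2 carried most of the difference, and the log2 fold change of -0.57 (SE 0.34, adjusted p = 0.304 by limma) became -0.15 (adjusted p = 0.134) without that library. CENPA, the histone variant that marks the centromere, had values of 12.8, 11.95 and 11.8 FPKM across the shCtrl replicates and 10.3, 8.21 and 10.2 FPKM across the shS1#1 replicates. These did not overlap, the log2 fold change was -0.35 (SE 0.10, adjusted p = 0.0739 by limma), and the adjusted p was 0.0191 without shS1#1 replicate 2.

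The most negative log2 fold change of all members was that of CENPV, a protein that associates with centromeres and the midzone of the spindle. It was at 1.248, 1.19 and 1.39 FPKM across the shCtrl replicates and 0.547, 0.685 and 0.902 FPKM across the shS1#1 replicates, a log2 fold change of -0.78 (SE 0.21, adjusted p = 0.0586 by limma) that rested on 23 to 62 reads per library. CENPE and CENPF are the large proteins of the outer fibrous layer, CENPE being a kinesin motor itself. CENPE had a log2 fold change of 0.27 (SE 0.16, adjusted p = 0.286 by limma). CENPF was at 13.04, 13.2 and 11.2 FPKM across the shCtrl replicates and 9.28, 19.9 and 11.1 FPKM across the shS1#1 replicates, so that shS1#1 replicate 2 was above and the other 2 shS1#1 libraries were below every shCtrl value. Its log2 fold change was 0.03 (95% interval -0.64 to 0.69) with all libraries and -0.29 without shS1#1 replicate 2. The groups did not overlap for 9 of the 21 genes, all lower in shS1#1 cells, where 21.0% of all genes were lower and 20.4% higher without overlap.

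None of the 4 spindle checkpoint genes was called by limma, with 1 at an unadjusted p under 0.05, 1 called by voom on recovered reads (MAD2L1 in both cases), and a median log2 fold change of -0.11. Of all genes, limma called 5.17% lower and 8.82% higher, and voom 7.74% lower and 11.8% higher. At that unadjusted p, 14.7% were lower and 16.1% higher. MAD2L1, which with BUB1B and other proteins forms the inhibitor of the anaphase-promoting complex, was at 19.8, 20.2 and 18.8 FPKM across the shCtrl replicates and 16.02, 12.4 and 15.7 FPKM across the shS1#1 replicates. All shS1#1 values lay below all shCtrl values, with a log2 fold change of -0.42 (SE 0.11, adjusted p = 0.0559 by limma), and it was called without shS1#1 replicate 2 (-0.30, adjusted p = 0.00696). BUB1B was at 18.13, 18.62 and 18.21 FPKM across the shCtrl replicates and 15.11, 18.05 and 16.66 FPKM across the shS1#1 replicates, with a log2 fold change of -0.14 (SE 0.08, adjusted p = 0.274 by limma). Its groups did not overlap by a narrow margin, and without shS1#1 replicate 2 it was called at -0.21 (adjusted p = 0.0369). The checkpoint kinases BUB1 and TTK had log2 fold changes of -0.08 (95% interval -0.30 to 0.15) and 0.13 (-0.07 to 0.33), and their groups overlapped.

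Of the 14 mitotic kinases, cyclins and survivin, 11 were tested and 0 were called by limma, where 5.17% of all genes were lower and 8.82% higher. At an unadjusted p under 0.05, 2 were lower and 1 higher, beside 14.7% and 16.1% of all genes. Voom called 1 lower, AURKB, where it called 7.74% of all genes lower and 11.8% higher. The cyclins led in level. CCNB1, cyclin B1, which activates CDK1 at the entry into mitosis, was at 68.3, 62.9 and 66.4 FPKM across the shCtrl replicates and 63.5, 50.3 and 63.03 FPKM across the shS1#1 replicates. The groups overlapped, and the log2 fold change was -0.17 (SE 0.11, adjusted p = 0.335 by limma). CCNA2, cyclin A2, was at 46.4, 45.3 and 44.98 FPKM across the shCtrl replicates and 40.2, 45.8 and 40.4 FPKM across the shS1#1 replicates, with a log2 fold change of -0.11 (SE 0.07, adjusted p = 0.343 by limma). Without shS1#1 replicate 2, the 1 shS1#1 library within the shCtrl range, CCNA2 was called at -0.18 (adjusted p = 0.0127).

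The kinases gave log2 fold changes of either sign. AURKB, the kinase of the chromosomal passenger complex that corrects faulty attachments, was at 10.1, 11.2 and 11.3 FPKM across the shCtrl replicates and 7.97, 5.12 and 7.75 FPKM across the shS1#1 replicates. That is 36.1% lower without overlap of the groups, and its log2 fold change of -0.66 (SE 0.18, adjusted p = 0.0557 by limma) lay just outside the threshold, with -0.46 (adjusted p = 0.00563) without shS1#1 replicate 2. AURKA, its relative at the spindle poles, averaged 23.2 ± 1.01 FPKM in shCtrl against 23.5 ± 1.92 FPKM in shS1#1 (SD, n = 3 for both). The log2 fold change of AURKA was 0.02 with a 95% interval of -0.18 to 0.21. PLK1, the polo-like kinase of mitosis, averaged 19.4 ± 1.16 FPKM in shCtrl against 19.6 ± 1.16 FPKM in shS1#1 (SD, n = 3 for both), with a log2 fold change of 0.02 (-0.17 to 0.20). The intervals of AURKA and PLK1 thus leave out changes as large as the mean difference of AURKB, although the difference between these genes was not tested. The sign of both turned negative when libraries were scaled to an equal sum of FPKM or to total reads.

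CDK1, the kinase that drives mitotic entry, was at 30.98, 29.1 and 28.9 FPKM across the shCtrl replicates and 26.8, 18.4 and 25.98 FPKM across the shS1#1 replicates. The groups did not overlap, the log2 fold change was -0.34 (SE 0.15, adjusted p = 0.185 by limma), and without shS1#1 replicate 2 it was -0.17 (adjusted p = 0.0448). BIRC5, or survivin, a partner of AURKB, had a log2 fold change of -0.10 (SE 0.06, adjusted p = 0.312 by limma). PLK4, which starts centriole duplication, had one of -0.23 (SE 0.07, adjusted p = 0.0869 by limma). PLK3, a polo-like kinase linked to stress responses, was at 3.75, 3.47 and 3.52 FPKM across the shCtrl replicates and 5.29, 3.76 and 5.25 FPKM across the shS1#1 replicates. Its log2 fold change was 0.39 (SE 0.14, adjusted p = 0.129 by limma) with all libraries and 0.55 (adjusted p = 0.00330) without shS1#1 replicate 2, whose value lay next to the shCtrl range. Among the members of this group that were not tested, AURKC had 1 to 7 reads per library, CCNB3 16 to 33, and CCNA1 none in any library.

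Anaphase begins when CDC20 activates the anaphase-promoting complex, which frees separase, the product of ESPL1, to cut cohesin. Neither gene was called by limma with all libraries, 1 had an unadjusted p under 0.05 and voom called 1 (CDC20 in both cases), and both were called without shS1#1 replicate 2. Limma with all libraries called 5.17% of all genes lower and 8.82% higher, and at that unadjusted p 14.7% were lower and 16.1% higher. Voom called 7.74% of all genes lower and 11.8% higher, and limma without shS1#1 replicate 2 called 13.2% and 14.7%. CDC20 was at 62.6, 64.8 and 65.1 FPKM across the shCtrl replicates and 55.6, 43.5 and 51.3 FPKM across the shS1#1 replicates. The groups were separate, the level was 21.9% lower, and the log2 fold change was -0.36 (SE 0.10, adjusted p = 0.0625 by limma), or -0.26 (adjusted p = 0.0112) without that library. ESPL1 was at 7.24, 7.20 and 7.76 FPKM across the shCtrl replicates and 6.28, 7.48 and 6.48 FPKM across the shS1#1 replicates, with a log2 fold change of -0.14 (SE 0.09, adjusted p = 0.348 by limma) and of -0.21 (adjusted p = 0.0429) without that library, the 1 shS1#1 library within the shCtrl range.

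The 4 spindle and mitotic chromosome genes gave 0 calls by limma, 0 at an unadjusted p under 0.05 and 0 by voom. Of all genes, limma called 5.17% lower and 8.82% higher, and voom 7.74% lower and 11.8% higher. At that unadjusted p, 14.7% were lower and 16.1% higher. The median log2 fold change of the 4 genes was 0.01 with all libraries and -0.11 without shS1#1 replicate 2. It was also below 0 under both other scalings and without shCtrl replicate 3. TOP2A, the topoisomerase that untangles chromosomes, had the highest level of all members, at 76.5, 73.2 and 70.5 FPKM across the shCtrl replicates and 65.1, 72.1 and 70.9 FPKM across the shS1#1 replicates. Its log2 fold change was -0.08 (SE 0.07, adjusted p = 0.475 by limma), with a 95% interval of -0.25 to 0.09. TPX2, a spindle assembly factor that activates AURKA, was at 49.2, 50.3 and 49.2 FPKM across the shCtrl replicates and 52.02, 68.7 and 51.5 FPKM across the shS1#1 replicates. Its log2 fold change was 0.20 (SE 0.12, adjusted p = 0.319 by limma), and it was 0.06 (adjusted p = 0.194) without shS1#1 replicate 2. MKI67, whose product Ki-67 coats mitotic chromosomes and serves as a proliferation marker, was at 35.1, 36.2 and 35.2 FPKM across the shCtrl replicates and 26.5, 64.2 and 32.8 FPKM across the shS1#1 replicates. Replicate 2 of shS1#1 was the highest library and the other shS1#1 libraries were the 2 lowest, so that the log2 fold change was 0.11 (95% interval -0.64 to 0.85) with all libraries and -0.27 (adjusted p = 0.0817) without it.

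Of the 14 mitotic kinesins, 12 were tested, 3 were lower and 0 higher, where 5.17% of all genes were lower and 8.82% higher. The median log2 fold change of the 12 was -0.10. Limma gave an unadjusted p under 0.05 for 4 in the lower direction and 0 in the higher direction, beside 14.7% and 16.1% of all genes. The 3 that fell act on microtubule plus ends or in cytokinesis. KIF20A (ENSG00000112984, chromosome 5 from 138178719 to 138187715), a motor of the spindle midzone needed for cytokinesis, was at 11.6, 11.6 and 11.5 FPKM across the shCtrl replicates and 9.48, 8.91 and 9.31 FPKM across the shS1#1 replicates. The shCtrl libraries hardly differed, all shS1#1 libraries lay below them, and the level fell by 20.3%, with a log2 fold change of -0.32 (SE 0.06, adjusted p = 0.0183 by limma). KIF23 (ENSG00000137807, chromosome 15 from 69414246 to 69448427), the motor subunit of the centralspindlin complex that organises the midzone, was at 11.2, 11.1 and 11.1 FPKM across the shCtrl replicates and 8.26, 8.95 and 9.001 FPKM across the shS1#1 replicates. It fell by 21.6% without overlap, with a log2 fold change of -0.35 (SE 0.06, adjusted p = 0.0187 by limma), and shS1#1 replicate 2 lay between the other shS1#1 libraries. KIF18B (ENSG00000186185, chromosome 17 from 44924709 to 44947711), which acts on the plus ends of astral microtubules, was at 18.1, 19.4 and 19.1 FPKM across the shCtrl replicates and 14, 10.5 and 14.6 FPKM across the shS1#1 replicates. It fell by 31.1% with a log2 fold change of -0.55 (SE 0.13, adjusted p = 0.0430 by limma), again without overlap, and replicate 2 was its lowest library.

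Without shS1#1 replicate 2 the log2 fold changes were -0.30 for KIF20A, -0.37 for KIF23 and -0.40 for KIF18B, all of them called. The adjusted p of KIF20A by limma was 0.0935 without shCtrl replicate 1, 0.0955 without shCtrl replicate 2, 0.0842 without shCtrl replicate 3 and 0.0734 without shS1#1 replicate 3. That of KIF23 was 0.094 without shCtrl replicate 1, 0.0925 without shCtrl replicate 2, 0.0833 without shCtrl replicate 3 and 0.0624 without shS1#1 replicate 3, and that of KIF18B was 0.122 without shCtrl replicate 1, 0.15 without shCtrl replicate 2, 0.145 without shCtrl replicate 3, 0.0594 without shS1#1 replicate 1 and 0.0632 without shS1#1 replicate 3. KIF22, a chromokinesin that pushes chromosome arms outward, had a log2 fold change of -0.31 (SE 0.10, adjusted p = 0.0835 by limma), and without shS1#1 replicate 2 it was called at -0.22 (adjusted p = 0.0176). KIF11, the motor that pushes the spindle poles apart, averaged 17.2 ± 1.31 FPKM in shCtrl against 17.5 ± 3.18 FPKM in shS1#1 (SD, n = 3 for both). Its log2 fold change was 0.01 with a 95% interval of -0.33 to 0.35, and -0.12 without shS1#1 replicate 2. The sign of KIF11 also turned negative under both other scalings. KIF4B, an intronless copy of KIF4A, had 3 to 8 reads per library and KIF2B none, and neither was tested.

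In the transport, ciliary and other kinesins, the genes called were higher in shS1#1 cells. Of 25 genes, 15 were tested, and 2 of these were higher (13.3%) and 0 lower, where 8.82% of all genes were higher and 5.17% lower. At an unadjusted p under 0.05, 7 were higher and 0 lower, where 16.1% of all genes were higher and 14.7% lower. Voom called 5 higher (KIF3A, KIF3C, KIF1C, KIF5A and KIF13B) and 0 lower, where it called 11.8% and 7.74% of all genes. KIF3C (ENSG00000084731, chromosome 2 from 25926596 to 25982749), a motor subunit of kinesin-2, was at 5.98, 6.26 and 6.32 FPKM across the shCtrl replicates and 8.59, 9.78 and 8.998 FPKM across the shS1#1 replicates. Every shS1#1 value was above every shCtrl value, and the level rose by 47.4%, with a log2 fold change of 0.55 (SE 0.07, adjusted p = 0.00666 by limma). This was the member with the smallest adjusted p, which was at most 0.0438 when any 1 library was left out. KIF3A (ENSG00000131437, chromosome 5 from 132692628 to 132737638), its partner motor in kinesin-2 and a builder of cilia, was at 3.62, 3.998 and 3.55 FPKM across the shCtrl replicates and 4.85, 4.64 and 4.89 FPKM across the shS1#1 replicates. It rose by 28.8% without overlap, with a log2 fold change of 0.36 (SE 0.08, adjusted p = 0.0316 by limma). With 1 library left out, KIF3A had an adjusted p of 0.131 without shCtrl replicate 1, 0.0717 without shCtrl replicate 2, 0.128 without shCtrl replicate 3, 0.0726 without shS1#1 replicate 1 and 0.11 without shS1#1 replicate 3.

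KIF3B, the other motor subunit of kinesin-2, was at 15.6, 15.3 and 15.3 FPKM across the shCtrl replicates and 16.9, 24.5 and 18.7 FPKM across the shS1#1 replicates. Here too the groups did not overlap, but the log2 fold change of 0.36 (SE 0.14, adjusted p = 0.134 by limma) did not pass the test, with shS1#1 replicate 2 far above the others, and without that library it was called at 0.21 (adjusted p = 0.0358). KIF1C, a motor of vesicle transport, was at 22.7, 22.9 and 25.1 FPKM across the shCtrl replicates and 29.3, 35.9 and 28.8 FPKM across the shS1#1 replicates. Its log2 fold change was 0.40 (SE 0.10, adjusted p = 0.0512 by limma), and 0.30 (adjusted p = 0.0130) without shS1#1 replicate 2. KIF5B, the ubiquitous conventional kinesin, had the highest level of this group, at 43.3, 41.9 and 38.1 FPKM across the shCtrl replicates and 44.5, 63.8 and 49.8 FPKM across the shS1#1 replicates. Its groups did not overlap and its log2 fold change was 0.34 (SE 0.14, adjusted p = 0.159 by limma), or 0.20 (adjusted p = 0.110) without shS1#1 replicate 2.

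KIF13B, a motor for membrane cargo, had the largest positive log2 fold change of the members tested. It was at 2.12, 1.84 and 2.24 FPKM across the shCtrl replicates and 2.99, 4.83 and 2.80 FPKM across the shS1#1 replicates, and its log2 fold change of 0.71 (SE 0.22, adjusted p = 0.0793 by limma) became 0.47 (adjusted p = 0.0301) without shS1#1 replicate 2. KIF27, a kinesin of motile cilia, had the most negative log2 fold change of the group, -0.37 (SE 0.17, adjusted p = 0.200 by limma). The 10 members that were not tested were KIF1A, KIF5A, KIF5C, KIF6, KIF12, KIF17, KIF19, KIF21B, KIF25 and KIF26B, several of them known from neurons or cilia. KIF1A came closest to the filter, with a mean of 0.491 FPKM. KIF5A, a neuronal conventional kinesin, was at 0.0705, 0.0671 and 0.0310 FPKM across the shCtrl replicates and 0.164, 0.128 and 0.207 FPKM across the shS1#1 replicates, on 3 to 19 reads a library, and voom gave it a log2 fold change of 1.56 (SE 0.39, adjusted p = 0.0257).

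Summed over each library, the 63 members other than transport kinesins came to 1001, 993 and 990.4 FPKM across the shCtrl replicates and 895, 889 and 902 FPKM across the shS1#1 replicates. The means were 995 ± 5.72 and 895 ± 6.60 FPKM (SD, n = 3 each), a ratio of 0.900. The sum lay within 889 to 902 FPKM in all shS1#1 libraries, although single members in replicate 2 lay far above or below the others. Reads of these 63 members, not divided by length or depth, numbered 65597, 68653 and 62370 across the shCtrl replicates. Across the shS1#1 replicates they numbered 52761, 57692 and 55199, highest in replicate 2, which had the fewest reads on genes of all libraries. The narrow range thus holds for the sum of FPKM and not for reads. The 25 transport kinesins summed to 114, 113 and 111 FPKM across the shCtrl replicates and 128, 172 and 137 FPKM across the shS1#1 replicates. Their means were 113 ± 1.53 and 146 ± 23.1 FPKM (SD, n = 3 each), a ratio of 1.29, and 132 FPKM in shS1#1 cells without replicate 2.

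Other genes of mitosis were described with 5 hand-written lists that hold none of the members. Of 105 genes, 104 were tested, 8 were lower and 2 higher (7.69% and 1.92%, beside 5.17% and 8.82% of all genes), and the median log2 fold change was -0.07. Of the 26 genes of the outer kinetochore and checkpoint, 2 were lower and 0 higher by limma, with 8 lower and 1 higher at an unadjusted p under 0.05, where 14.7% of all genes were lower and 16.1% higher. SKA3, of the complex that helps NDC80 track microtubule ends, was at 12.8, 13.2 and 14 FPKM across the shCtrl replicates and 9.28, 8.77 and 9.35 FPKM across the shS1#1 replicates. The groups did not overlap, and its log2 fold change of -0.54 (SE 0.07, adjusted p = 0.00500 by limma) passed in all 6 fits that each left out 1 library. SPDL1, which brings dynein to the kinetochore, had a log2 fold change of -0.50 (SE 0.11, adjusted p = 0.0347 by limma).

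Among the 19 genes of the anaphase-promoting complex and securin, FZR1, the activator that takes over from CDC20, was higher, with a log2 fold change of 0.33 (SE 0.07, adjusted p = 0.0345 by limma). FBXO5, an inhibitor of the complex, was lower, with a log2 fold change of -0.50 (SE 0.11, adjusted p = 0.0352 by limma). Of 18 genes of spindle assembly and cytokinesis that were tested, 1 was higher and 0 were lower, beside 8.82% and 5.17% of all genes. At an unadjusted p under 0.05, 3 were lower and 2 higher, beside 14.7% and 16.1% of all genes. NUMA1, which tethers microtubules at the spindle poles, was the 1 called higher, with a log2 fold change of 0.59 (SE 0.12, adjusted p = 0.0215 by limma). Of 18 genes of condensin and cohesin, the condensin II subunit NCAPD3 was lower, with a log2 fold change of -0.35 (SE 0.06, adjusted p = 0.0126 by limma), and so was CDCA5, the sororin that protects cohesin, at -0.35 (SE 0.07, adjusted p = 0.0213 by limma). Of 23 regulators of mitotic entry and transcription, 3 were lower and 0 higher, beside 5.17% and 8.82% of all genes. MYBL2, the transcription factor that joins the complex bound to cell cycle homology regions, averaged 59.8 ± 1.28 FPKM in shCtrl against 46.9 ± 3.77 FPKM in shS1#1 (SD, n = 3 for both), with a log2 fold change of -0.35 (SE 0.08, adjusted p = 0.0322 by limma). PKMYT1, an inhibitory kinase of CDK1, had a log2 fold change of -0.39 (SE 0.10, adjusted p = 0.0468 by limma), and E2F7, a repressor of the cell cycle, had one of -0.26 (SE 0.07, adjusted p = 0.0481 by limma). The calls of these genes, other than SKA3, were lost when some libraries were left out. NUMA1 had an adjusted p by limma of 0.0931 without shCtrl replicate 1, 0.0977 without shCtrl replicate 2, 0.0696 without shCtrl replicate 3 and 0.0583 without shS1#1 replicate 3. FZR1 was called in 1 of the 6 fits, that without shS1#1 replicate 2, and had an adjusted p of 0.0758 to 0.146 in the others. MYBL2, PKMYT1 and E2F7 were likewise called in that fit alone, SPDL1, NCAPD3 and CDCA5 in 2 fits each and FBXO5 in 3. Without shS1#1 replicate 2, 22 genes of these lists were lower and 4 higher (21.2% and 3.85%), against 13.2% and 14.7% of all genes. Without shCtrl replicate 1, 2 or 3, or shS1#1 replicate 1 or 3, 2, 1, 1, 5 and 2 of them were lower, in that order.

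Among the members, how far shS1#1 replicate 2 departed from the other shS1#1 libraries went with gene length. Across the 73 members, its difference in log2(FPKM + 0.1) from their mean correlated with the log10 of the exonic length, with a Pearson r of 0.653 and a Spearman rho of 0.661. The correlation is across genes of 1 library set and is given as a description, since genes are not independent replicates. Over all 15556 genes the Pearson r was -0.001 and the Spearman rho 0.221, so the 2 measures differed there. The 37 members with up to 4668 bases of exon, the median of the members, had a median of -0.32 relative to the shCtrl mean in this library, and of -0.14 and -0.17 in shS1#1 replicates 1 and 3. For the 36 longer members the medians were 0.19, -0.07 and 0.02, in the same order. The shCtrl libraries lay between -0.03 and 0.03 in both classes. A trend with GC content was seen in shCtrl replicate 3. Across the 73 members, its difference from the other shCtrl libraries correlated with the log10 of GC percent (Pearson r 0.601, Spearman rho 0.630). For shS1#1 replicate 2 against the other shS1#1 libraries, that Pearson r was -0.151.

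**Figure D4:**
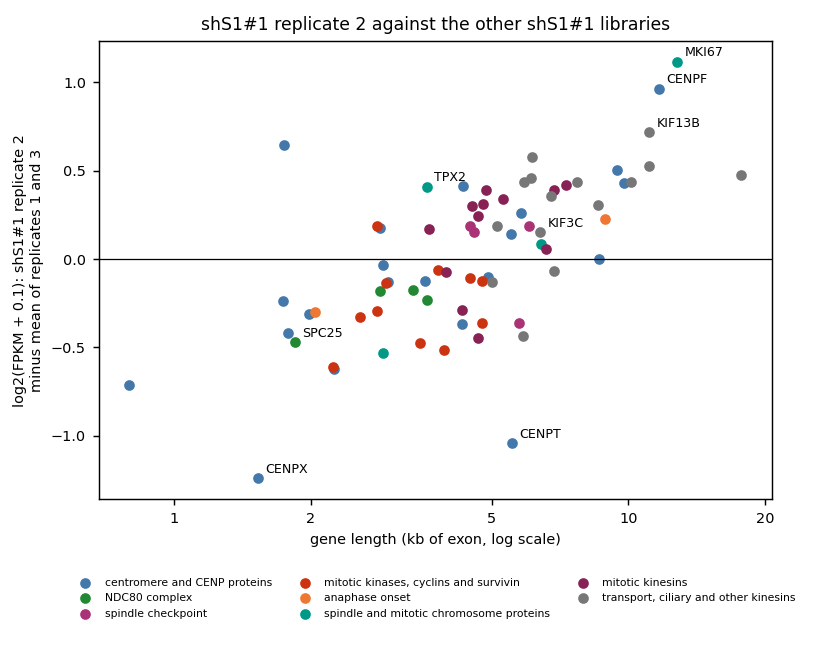
Each point is 1 of the 73 tested members, coloured by role; the horizontal axis is the exonic length in kb on a log scale and the vertical axis the log2(FPKM + 0.1) of shS1#1 replicate 2 minus the mean of shS1#1 replicates 1 and 3. Short genes lie mostly below 0 and long genes above it, from CENPX at -1.24 to MKI67 at 1.12.

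The members at the ends of this range were MKI67 (1.12) and CENPF (0.96), the 2 longest members other than transport kinesins, and CENPX (-1.24) among the shortest. CENPT, an inner kinetochore protein of intermediate length, was an exception at -1.04, with 6.90, 6.65 and 7.15 FPKM across the shCtrl replicates and 8.11, 3.75 and 7.55 FPKM across the shS1#1 replicates. All 8 members called in the main comparison kept their direction without this library. When the trend of each library with gene length and GC content was removed before the test, an alternative chosen after the data were seen, limma called 12 members lower and 4 higher, against 8.07% and 10.8% of all genes. The 6 members lower with the deposited values were among the 12, KIF3C was among the 4, and KIF3A was not called (adjusted p = 0.0752). MYBL2, outside the members, also lost its call (adjusted p = 0.198 by limma). The part that gene length or the mitochondrial share of replicate 2 had in these values was not tested.

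Some members share exonic bases with other genes, and whether the counting used the strand is not given in the sources used here. The largest shares were those of CENPS (64.8% of its exonic bases, with a readthrough gene), NUSAP1 (62.2%) and CENPP (42.7%), whose levels are therefore uncertain. For the 8 called members the share was at most 5.05%, in KIF20A.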

How the data were processed

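Total RNA of 3 shCtrl and 3 shS1#1 NCI-N87 libraries was sequenced. The authors deposited FPKM per gene, with gene length, coordinates and biotype; the submitters' processing notes name HISAT2 2.0.5, featureCounts 1.5.0-p3, DESeq2 1.20.0 and build hg38. Coordinates equalled those of GENCODE 29 for 58724 of 58735 genes. FPKM multiplied by length was a whole multiple of 1 step per library for 100% of values above 0 (tolerance 0.05), which gave reads per gene.

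Genes averaging 0.5 FPKM or more were tested with limma 3.58.1 in R 4.3.3 (lmFit, then eBayes with its trend option) after transformation to log2(FPKM + 0.1), and Benjamini-Hochberg adjustment covered 15556 genes. The script was tested on simulated data. Voom used the recovered reads with a mean of at least 10 per library. Tables and promoter searches used Python 3.11.15 with pandas 2.3.3, numpy 2.4.6 and scipy 1.17.1.

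The members and lists were chosen with earlier results of these data known. The genes named are SCAMP1, the called members of each role list or, where fewer than 2 were called, the 2 with the highest mean FPKM, up to 3 called genes of each list outside the members, and stated extremes. Further genes were named with their values known. Depth was similar in all libraries and limits mostly genes with few reads. Alternatives changed the pseudocount, the filter, the scaling, the variance trend or the biotypes, used voom or a replicate block, or left out 1 library.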

Additional observations from a re-analysis of the deposited data

How the results depend on the processing

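The counts of called members depended on the settings. With all 6 libraries, limma gave 6 members lower and 2 higher (5.17% and 8.82% of all genes). The calls over all genes moved as well and are given in brackets. No filter on low values gave 3 and 1 (1.53% and 3.28%), voom 10 and 5 with 1 past the fold threshold (7.74% and 11.8%), protein-coding genes only 11 and 4 (9.16% and 13.6%), and scaling to total reads 9 and 1 (8.12% and 7.30%). Removal of the trends with length and GC content gave 12 and 4 (8.07% and 10.8%), or 24 and 7 (15.5% and 16.0%) when shS1#1 replicate 2 was also left out; these 2 alternatives were chosen after the data were seen. CENPM, SPC25 and KIF18B lost their calls without the filter and without the mean-variance trend, and KIF3A without the filter, under both other scalings and with trends removed. Leaving out each library gave 0 to 18 lower and 1 to 6 higher members (1.05% to 13.2% and 4.14% to 14.7%), with KIF3C called each time. For the mitosis lists outside the members, 8 genes lower and 2 higher became 3 and 1 without the filter (1.53% and 3.28%) and 15 and 1 with total reads (8.12% and 7.30%). They became 3 and 1 without the mean-variance trend (4.19% and 7.77%), and 29 and 5 with trends removed and without shS1#1 replicate 2 (15.5% and 16.0%). When single libraries were left out, 1 to 22 were lower and 0 to 4 higher (1.05% to 13.2% and 4.14% to 14.7%).

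Scaling to total reads moved the median log2 fold change of all genes from -0.02 to -0.10, that of the members to -0.16, of the CENP proteins to -0.23 and of the anaphase genes to -0.32. The median of the CENP proteins was -0.21 with trends removed and without shS1#1 replicate 2, and ranged from -0.201 to -0.0853 when single libraries were left out.

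Of the 73 members tested, 15 changed the sign of their log2 fold change under at least 1 alternative, none of them among the 8 called with all 6 libraries. Of these, 7 were described by their own values: NDC80, CENPF, CENPT, AURKA, PLK1, MKI67 and KIF11. The other 8 were CENPC, CENPS, KIF9, KIF14, KIF15, KIF24, KIF26A and PLK2. With an equal sum of FPKM, AURKA, PLK1 and KIF11 were at -0.010, -0.011 and -0.015. With total reads, CENPF, AURKA, PLK1 and KIF11 were at -0.047, -0.058, -0.058 and -0.062. With trends removed, CENPF and KIF11 were at -0.081 and -0.029. With trends removed and without shS1#1 replicate 2, NDC80 and CENPT were at 0.023 and 0.15, and CENPF, MKI67 and KIF11 at -0.30, -0.26 and -0.14. When single libraries were left out, the range was -0.0806 to 0.0483 for NDC80, -0.294 to 0.252 for CENPF, -0.0481 to 0.0623 for AURKA, -0.0274 to 0.0647 for PLK1, -0.266 to 0.369 for MKI67, -0.118 to 0.144 for KIF11 and -0.368 to 0.179 for CENPT. For the 55 genes named with a test, 555 of 658 values under the other alternatives and 232 of 330 with a library left out kept their direction and their side of the threshold. The cause of these changes was not tested, other than that the fits that leave out a library have fewer samples.

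With the replicate number as a block (replicate block), limma called 1 member lower and 1 higher (CENPM and KIF3C; 1.63% and 4.53% of all genes), and 1 and 0 genes of the outside lists. Deviations of same-numbered libraries correlated at -0.035, 0.033 and 0.067, and not every library correlated best with its own number. The main fit took the numbers as names of libraries and not as pairs. Correlations this weak cannot exclude pairs, and the labels do not say whether the libraries were paired.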
